A study of Mus musculus with 32 samples.

Results

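The immediate early genes described here were 10 genes taken by name, Fos, Fosb, Fosl1, Jun, Junb, Egr1, Arc, Npas4, Nr4a1 and Atf3, of 33280 genes in each of the deposited count tables. All 10 were found in both tables. The tables hold bulk RNA-seq of whole brain tissue slices and of libraries labelled sdCAMs, from a CD206+ sort meant to hold CNS-associated macrophages of the brain borders without the choroid plexus, from wild-type C57BL/6JCrl mice of both sexes aged 10 ± 3 weeks at the first gavage. Mice were gavaged for 7 days with vehicle (CTL, n = 4, mice A2, A3, A4 and B1) or with 200 mg/kg BLZ945, an inhibitor of the CSF1 receptor that depletes macrophages (n = 4, mice C2, C3, C4 and D1). All 8 mice received a stroke 8 weeks later by injection of thrombin into the middle cerebral artery, and both hemispheres were collected 1 day after it, so the contralateral hemisphere of the same operated mouse was the only reference and no unoperated mouse was included. The sdCAMs went through warm enzymatic digestion and a sort on CD206, CD45 and CD11b, whereas the tissue did not.

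Immediate early genes are transcribed within minutes of a stimulus from factors that are already present in the cell, without the need for new protein. Most of them encode transcription factors: the FOS and JUN proteins pair to form AP-1, ATF3 is a stress-induced relative that pairs with them, EGR1 is a zinc finger factor, NR4A1 is an orphan nuclear receptor and NPAS4 is a factor of neurons that follows calcium entry. ARC is the exception, a protein of the neuronal synapse that controls receptor uptake. In the brain these genes are used as marks of recent neuronal firing, and in macrophages they are also known to respond to stimulation and to the handling of cells during isolation.

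The promoters are shown because Fos, Fosb, Junb, Npas4, Nr4a1 and Atf3 shared a short motif there that the choice of genes did not use. RefSeq promoter windows of build GRCm38.p6, from 250 bases before to 50 bases after the start of transcription, were given for 7 of the 10 genes, not for Fosl1, Egr1 and Arc. The CRE core TGACG, searched on both strands, was found in 6 of these 7 windows, all but that of Jun, and in 20.8% of all 32851 windows. The full CRE TGACGTCA, in which this core is contained, was found in 0 of 7 (1.79% of all windows), the AP-1 motif TGANTCA in 0 of 7 (7.81%) and the serum response CArG box in 0 of 7 (1.63%). Sites outside these windows, such as those more than 250 bases before the start, were not searched. The stretches below run 5′ to 3′ on the strand of the gene and end at the base before the start (position -1), with TGACG or its reverse complement CGTCA in capitals.
Fos, chr12:85473690-85473889, plus strand: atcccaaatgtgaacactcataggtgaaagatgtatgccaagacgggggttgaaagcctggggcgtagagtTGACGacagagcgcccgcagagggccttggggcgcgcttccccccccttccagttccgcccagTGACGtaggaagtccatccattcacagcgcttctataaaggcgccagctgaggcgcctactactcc
Fosb, chr7:19310046-19310245, minus strand: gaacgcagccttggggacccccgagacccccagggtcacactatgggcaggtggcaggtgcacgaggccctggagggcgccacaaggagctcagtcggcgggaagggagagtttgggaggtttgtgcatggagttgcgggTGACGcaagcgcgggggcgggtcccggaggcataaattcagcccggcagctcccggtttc
Junb, chr8:84978749-84978948, minus strand: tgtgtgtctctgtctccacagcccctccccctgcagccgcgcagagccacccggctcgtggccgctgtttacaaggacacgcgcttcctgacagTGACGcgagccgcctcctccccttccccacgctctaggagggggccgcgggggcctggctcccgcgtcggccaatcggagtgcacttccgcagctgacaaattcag
Npas4, chr19:4989972-4990171, minus strand: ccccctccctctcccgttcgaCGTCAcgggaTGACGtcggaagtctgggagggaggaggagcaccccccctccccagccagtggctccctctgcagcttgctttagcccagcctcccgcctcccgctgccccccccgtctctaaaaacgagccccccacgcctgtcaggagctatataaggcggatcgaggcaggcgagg
Nr4a1, chr15:101266646-101266845, plus strand: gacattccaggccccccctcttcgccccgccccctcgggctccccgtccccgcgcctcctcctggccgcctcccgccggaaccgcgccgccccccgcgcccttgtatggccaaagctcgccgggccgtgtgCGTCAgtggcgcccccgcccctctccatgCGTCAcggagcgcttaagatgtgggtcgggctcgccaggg
Atf3, chr1:191183334-191183533, minus strand: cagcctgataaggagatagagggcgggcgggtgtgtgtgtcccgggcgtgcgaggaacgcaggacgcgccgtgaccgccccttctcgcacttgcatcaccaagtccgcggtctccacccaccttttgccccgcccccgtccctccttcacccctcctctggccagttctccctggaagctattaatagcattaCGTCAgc
These cores began at positions -129 and -66 in Fos, at -60 in Fosb, at -106 in Junb, at -179 and -169 in Npas4 and at -7 in Atf3. Nr4a1 had them at -69 and -40 and, upstream of the printed stretch, at -233 and -213. These are matches of letters only, and the shares over all windows were not matched for base composition.

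The libraries held 9288717 to 12781505 counts on genes in tissue (16 libraries) and 7397393 to 11081409 in sdCAMs (14 libraries), and 3 counts corresponded to 0.234 to 0.321 and 0.253 to 0.389 CPM (counts scaled to the library size). The labels mention degraded RNA in 2 samples, and the ipsilateral sdCAM libraries of A3 and C2, which held 54055 and 55155 counts, were left out, so sdCAM groups had 4 contralateral and 3 ipsilateral libraries. For the tissue of A3 the hemisphere in the column name is the opposite of that in the sample label. The label was used. With the column names A3 turned its direction for all 10 genes, so that every count of tissue mice given below moves by 1, and a single gene of 18968 was called in the average over treatments, Col3a1, a collagen gene named after its value was seen. It is none of the members, pathway genes or markers, so that no call of the average in tissue below was kept with the column names. With A3 left out altogether 1.55% of all genes were called in this average, among them 2 of the 10 members. Summed markers of border macrophages were at 1426 to 8764 CPM in sdCAMs against 6.48 to 20.1 in tissue, and summed neuronal markers at 0 to 118 against 8654 to 13960. Summed microglial markers, at 5228 to 25290 CPM, were above the border macrophage markers in every sdCAM library. Choroid plexus markers were above the border macrophage markers in 4 of 8 contralateral sdCAM libraries, at 8950 CPM in A4, 20030 in C3, 37200 in C4 and 5276 in D1 against 2788, 2593, 1426 and 3710 CPM, and in 0 of 6 ipsilateral ones. Calls and sign changes of the members in sdCAMs are also given without these 4 libraries, an alternative chosen after seeing the data. The other sdCAM results, on lists, markers, correlations and ratios to tissue, include these libraries and were not repeated without them.

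Levels of different genes were compared as CPM per kilobase of exon. In contralateral tissue of CTL mice (n = 4) Egr1 was at 64.3 ± 20 (mean ± SD) and Arc at 54.0 ± 23.8 CPM per kb, followed by Junb at 29.3 ± 14.4, Nr4a1 at 23.3 ± 9.15 and Jun at 17.1 ± 2.41. Fos was at 9.89 ± 3.66 CPM per kb, above Fosb at 3.13 ± 1.17 and Npas4 at 2.39 ± 0.771, with Atf3 at 1.28 ± 0.836 and Fosl1 at 0.0218 ± 0.0252. Along this order the ranges of mean ± SD did not overlap between Jun and Fos, between Fos and Fosb and between Atf3 and Fosl1, and they overlapped between all other neighbours. In contralateral sdCAMs of CTL mice the order began with Fos at 772.5 ± 680, Jun at 371 ± 247 and Junb at 328.5 ± 215 CPM per kb. Egr1 was at 217 ± 173, Atf3 at 118 ± 91.5, Nr4a1 at 33.8 ± 18.6 and Fosb at 6.38 ± 6.68, and only between Nr4a1 and Fosb did the ranges of mean ± SD not overlap among these genes.

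In whole tissue, 4 of the 10 immediate early genes rose on the stroke side and 6 did not pass the test. Averaged over CTL and BLZ945 mice, Atf3, Fosl1, Npas4 and Jun rose, by 5.34-fold, 7.19-fold, 7.07-fold and 1.54-fold. Calls required an adjusted p (Benjamini-Hochberg) below 0.05 together with a log2 fold change beyond 0.59 in edgeR's quasi-likelihood test over 18968 genes. This held for 4 of the 10 genes, 7 were at an unadjusted p under 0.05, and 2.01% of all genes tested were called. The log2 fold change was above 0 in all 10, with a median of 1.23 against -0.0091 over all genes. DESeq2 called 6, adding Fos and Fosb (2.34% of all genes), and the fit with the mouse as a block also 6 (2.42% of all genes), with Fos, Fosb and Junb added and Jun, at a log2 fold change of 0.58, no longer past the fold threshold. With the hemispheres of A3 as in the column names 0 were called (0.00527% of all genes). Without B1 or without C2 only Atf3 was called, without A3 or without D1 only Atf3 and Npas4, without C4 5 genes (Fosb added), and without another mouse 3 or 4. In bulk libraries, fewer cells of a type and less RNA per cell cannot be told apart.

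Atf3, the stress-induced partner of AP-1, was the member with the clearest rise. On the contralateral side it was at 2.06, 5.44, 1.96 and 1.57 CPM in the CTL mice A2, A3, A4 and B1, and at 1.18, 2.40, 1.58 and 2.06 CPM in the BLZ945 mice C2, C3, C4 and D1. On the ipsilateral side it was at 6.48, 7.55, 7.25 and 21.3 CPM in CTL and at 15.9, 10.9, 6.94 and 20.4 CPM in BLZ945 mice. It was the only one of the 10 genes whose ipsilateral and contralateral tissue libraries did not overlap, which 0.865% of all genes did, and it was higher in 8 of 8 mice. With the column names for A3 the libraries overlapped, the contralateral ones reaching 7.55 CPM and the ipsilateral ones starting at 5.44 CPM, and Atf3 was higher in 7 of 8 mice. The log2 fold change was 2.42 ± 0.33 (SE) on average (edgeR adjusted p = 0.000345), and with the column names for A3 it was 2.25 (adjusted p = 0.0556). In CTL mice alone it was 1.94 ± 0.45 (edgeR adjusted p = 0.0869), which was called by DESeq2 (adjusted p = 0.00246), with the block (adjusted p = 0.00779) and without A3 (adjusted p = 0.0490), but not otherwise. In BLZ945 mice it was 2.90 ± 0.48 (edgeR adjusted p = 0.00389), with an adjusted p of 0.0703 when the column names set the hemispheres of A3 and of 0.0611 without C2.

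Among the FOS genes, which have to pair with a JUN protein to bind DNA, Fos itself showed how uneven the mice were. It was at 12.8, 19.6, 30.8 and 29.8 CPM in contralateral CTL tissue and at 12.9, 19.1, 26.3 and 43.1 CPM in contralateral BLZ945 tissue. Ipsilateral levels were 13.8, 29.9, 27.1 and 130 CPM in CTL and 205, 160, 24.1 and 44.0 CPM in BLZ945 mice. The ipsilateral libraries of B1, C2 and C3 were the highest of all 16, and the other 5 ipsilateral libraries lay between 13.8 and 44.0 CPM, close to the contralateral range. The average log2 fold change of 1.60 ± 0.48 was not called by edgeR (adjusted p = 0.0869), while DESeq2 and the block called it (both adjusted p = 0.0425).

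Fosb, which in neurons outlasts Fos after repeated stimulation, followed the same libraries. It reached 82.5 CPM in ipsilateral B1, 146 in C2 and 190 in C3, and was between 13.5 and 32.6 CPM in every other tissue library. Its average log2 fold change was 1.55 ± 0.44 (edgeR adjusted p = 0.0708). Fosl1, which encodes FRA1, was close to the limit of detection, with 64 counts summed over the 8 ipsilateral and 9 over the 8 contralateral tissue libraries. This is a ratio of 6.88 (95% interval of the counts 3.41 to 15.7, counting error only), and Fosl1 was higher in 7 of 8 mice. With the column names for A3 the counts were 57 and 16 and Fosl1 was higher in 6 of 8. Its call (log2 fold change 2.85 ± 0.63, edgeR adjusted p = 0.0163) ended without A3, B1, C2 or D1, and with the column names for A3 (adjusted p = 0.403).

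The JUN genes differed from each other in how many mice took part. Jun, the main partner of FOS proteins, was at 54.4, 58.0, 44.0 and 61.8 CPM in contralateral and at 70.1, 70.1, 48.8 and 103 CPM in ipsilateral tissue of CTL mice. In BLZ945 mice it was at 45.0, 50.7, 41.2 and 48.5 CPM contralaterally and at 116, 66.5, 61.8 and 82.2 CPM ipsilaterally. Jun was higher in 8 of 8 mice by 0.15 to 1.36 on the log2 scale, in 7 of 8 with the column names for A3, and the groups overlapped. The average log2 fold change was 0.62 ± 0.14 (edgeR adjusted p = 0.0231), and the call ended without A2, A3, B1, C2 or D1 and with the column names for A3 (adjusted p = 0.154). In BLZ945 mice alone it was 0.82 ± 0.20, called by DESeq2 (adjusted p = 0.00618) and with the block (adjusted p = 0.000648) and not by edgeR without it (adjusted p = 0.0611). Junb, an AP-1 subunit with weaker activity than JUN, was at 34.9 to 114 CPM contralaterally. Ipsilaterally it was at 183, 235 and 251 CPM in B1, C2 and C3 and at 50.6 to 104 CPM in the other mice. Its average log2 fold change was 0.91 ± 0.31 (edgeR adjusted p = 0.151, with the block 0.0314).

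Npas4, which neurons switch on after calcium entry, had the widest range in tissue among the 9 genes detected in all 16 libraries, 35.2-fold from the lowest to the highest library. Contralaterally it was at 9.51, 9.01, 14.3 and 6.75 CPM in CTL and at 8.57, 14.5, 13.9 and 16.6 CPM in BLZ945 mice. Ipsilaterally it was at 7.03, 7.80, 19.9 and 177 CPM in CTL and at 237, 222, 13.6 and 26.2 CPM in BLZ945 mice. Thus B1, C2 and C3 again lay far above the rest, whereas the other ipsilateral libraries lay within or near the contralateral range and 5 of 8 mice were higher ipsilaterally. The average log2 fold change was 2.82 ± 0.69 (edgeR adjusted p = 0.0310) and was not called without B1, without C2, without C3 or with the column names for A3 (adjusted p = 0.104). Fitted with the mouse as a block, it was 1.88 ± 0.52 (edgeR adjusted p = 0.0327).

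Arc, the synaptic effector, was at 94.0, 121, 256 and 190 CPM in contralateral and at 129, 112, 234.5 and 408 CPM in ipsilateral tissue of CTL mice. In BLZ945 mice it was at 84.3, 230, 376 and 303 CPM contralaterally and at 392.5, 465, 244 and 323 CPM ipsilaterally. The hemispheres overlapped in both treatments and 5 of 8 mice were higher ipsilaterally, with an average log2 fold change of 0.47 ± 0.31 (edgeR adjusted p = 0.554). Nr4a1, the nuclear receptor, was at 35.8 to 126 CPM contralaterally and at 44.5 to 321 CPM ipsilaterally (0.65 ± 0.34, edgeR adjusted p = 0.412). It was higher ipsilaterally in B1, C2 and C3 only. Egr1, the zinc finger factor with the highest level per length in contralateral tissue, was at 210 to 557 CPM contralaterally and at 173 to 711 CPM ipsilaterally, again higher in these 3 mice only, with an average log2 fold change of 0.17 ± 0.22 (edgeR adjusted p = 0.818). The 3 highest tissue libraries were the ipsilateral ones of B1, C2 and C3 for 6 of the 10 genes, Fos, Fosb, Junb, Arc, Npas4 and Nr4a1, with 1 CTL and 2 BLZ945 mice among them. These mice were picked from the members' own values, the members vary together, and the share over all genes was not computed. The count is thus a description and not a result particular to these genes.

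**Figure D1:**
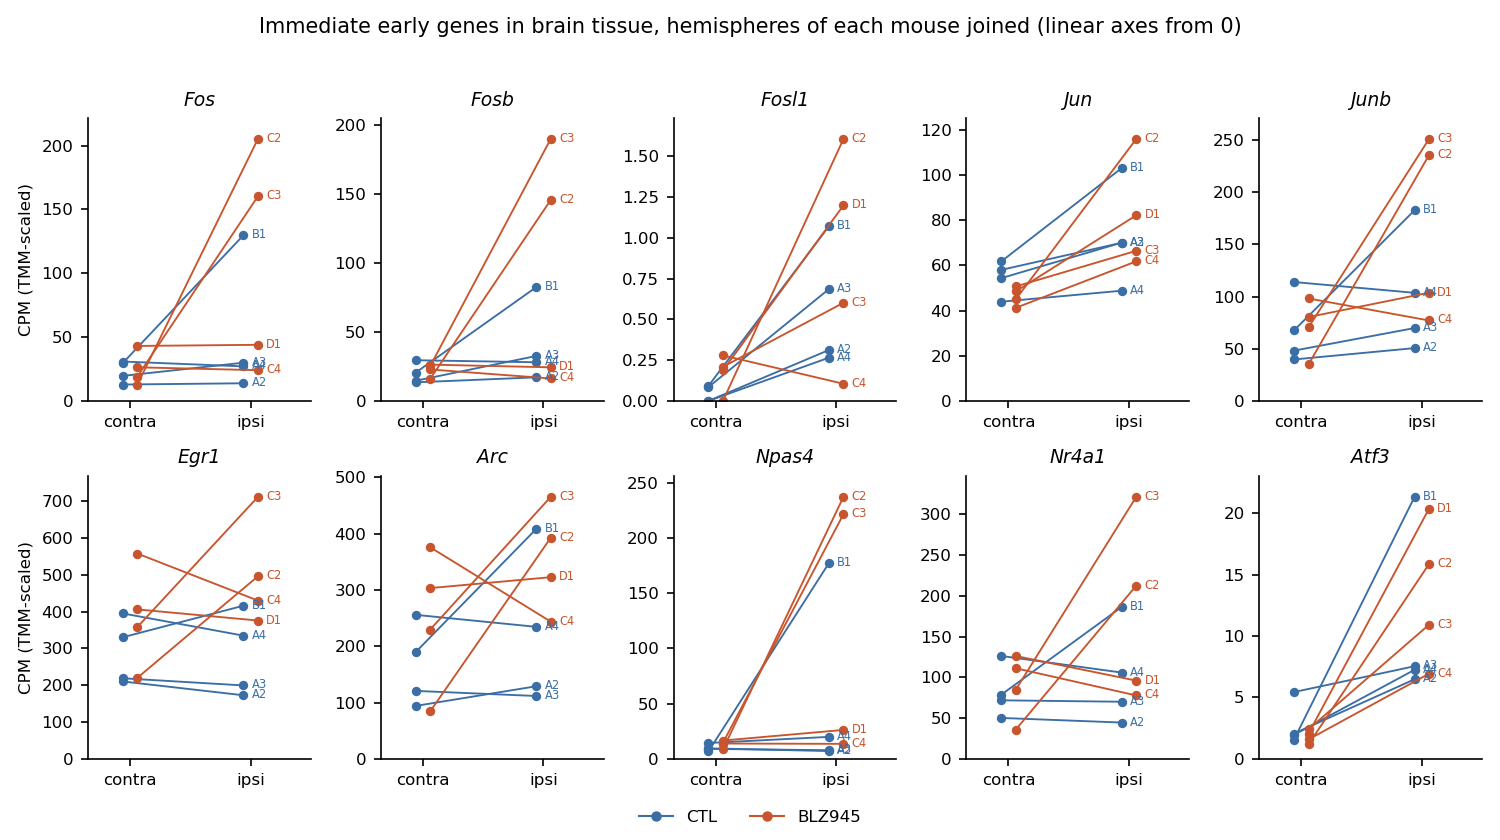
Level of each immediate early gene in brain tissue, in CPM on linear axes from 0, with 1 line per mouse from the contralateral to the ipsilateral library (blue CTL, orange BLZ945). Atf3 and Jun were higher ipsilaterally in 8 of 8 mice (7 of 8 with the column names for A3), whereas Fos, Fosb and Npas4 lay far above the rest in ipsilateral B1, C2 and C3.

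Split by treatment, edgeR called 0 of 10 genes in CTL tissue, with 3 at an unadjusted p under 0.05 (Atf3, Fosl1 and Npas4), where 0.443% of all genes were called. DESeq2 (0.733% of all genes) and the block (0.975%) each called Atf3, and with A3 as in the column names 0 of 10 and 0% of all genes were called. In BLZ945 tissue edgeR called 1 of 10, Atf3, with 7 at an unadjusted p under 0.05 and 1.16% of all genes called. DESeq2 called Atf3, Jun and Npas4 (1.84% of all genes), the block Atf3 and Jun (2.18%), and the column names for A3 gave 0 of 10 (0.0316%). Without A4 Atf3 and Jun were called, without B1 Atf3, Jun and Npas4, and without C2 none of the 10 was called by edgeR. The median log2 fold change of the 10 genes was 0.82 in CTL and 1.64 in BLZ945 tissue, against -0.0091 and -0.0032 over all genes.

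This difference between the treatments was tested and not called. The interaction of stroke and treatment in tissue was called for 0 of 10 genes by edgeR and by DESeq2, each with 0% of all genes called, and 0 of 10 were at an unadjusted p under 0.05. For Fos, for example, the stroke response was larger in BLZ945 mice by 0.98 on the log2 scale, with a 95% interval from -0.87 to 2.82, and for Atf3 by 0.96, with an interval from -0.32 to 2.25, so these libraries could not separate the responses. Compared directly, ipsilateral BLZ945 tissue was higher than ipsilateral CTL tissue in the fitted value of all 10 genes, from 0.16 for Jun to 1.23 for Fosb and Npas4 on the log2 scale, and 0 of 10 were called by edgeR (0% of all genes) or by DESeq2 (0.00527%). The 1 gene at an unadjusted p under 0.05 was Egr1 (log2 fold change 0.84 ± 0.31, edgeR adjusted p = 0.958). In contralateral tissue 0 of 10 were called by either tool and 0 had an unadjusted p under 0.05, with 0% of all genes called by both. The interaction and the comparisons within a hemisphere share libraries with the stroke comparisons.

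Among 83 other genes of the response, its regulators and stress genes tested in tissue, edgeR called 14 on average over treatments, all upward. This is 16.9% of them against 2.01% of all genes. The lists were chosen with earlier results of these data known, so these shares are a description and not a test. Of 20 further rapid response genes, 6 rose on average over treatments (median log2 fold change 0.49) and 0 fell. Zfp36, which destabilizes cytokine mRNAs, rose by 1.63 ± 0.23 on the log2 scale (edgeR adjusted p = 0.000453), and Gadd45b, a stress sensor, by 1.11 ± 0.12 (edgeR adjusted p = 3.27e-05). Ccn1, a secreted matrix protein, rose by 1.60 ± 0.34, and Gadd45g by 1.12 ± 0.23. Of 15 targets of neuronal activity, 4 rose (median 0.19) and 0 fell: Nptx2, a synaptic pentraxin, by 1.26 ± 0.21, Ptgs2, the inducible cyclooxygenase, by 1.89 ± 0.35, Rgs2, a regulator of G protein signalling, by 0.71 ± 0.17, and Inhba, an activin subunit, by 0.73 ± 0.17. Of 8 other AP-1 and dimer partners only the small MAF protein gene Maff rose, by 1.29 ± 0.25 (list median 0.20). None of the 5 other EGR and NR4A genes, the 10 MAPK phosphatase and feedback genes and the 14 upstream regulators was called by edgeR, with list medians of 0.12, 0.20 and 0.047. Of 11 stress genes linked to warm digestion 3 rose, Socs3, Hspa1a and Hspa1b. In CTL tissue alone Gadd45b and Socs3 were the only genes called in these lists. In BLZ945 tissue Gadd45b, Zfp36, Ccn1, Ptgs2, Nptx2, Rgs2, Socs3, Hspa1b and Hspa1a were called.

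The stroke side of the tissue differed in cell markers as well. The neuronal markers summed to 9720 to 13960 CPM contralaterally and 8654 to 12140 CPM ipsilaterally, and 0 of 7 were called. Gfap of the 4 astrocyte markers rose by 1.71 ± 0.19 on the log2 scale, Pecam1 and Cdh5 of the 4 endothelial markers by 0.66 ± 0.12 and 0.76 ± 0.13, and P2ry12 of the 5 microglial markers fell by 0.70 ± 0.11. S100a9 of the 3 neutrophil markers tested rose by 3.70 ± 0.72 and Plac8 of the 4 monocyte markers by 2.68 ± 0.67. The neutrophil markers summed to 4.71 to 7.63 CPM contralaterally and 4.81 to 9.23 CPM ipsilaterally. The monocyte markers summed to 0 to 0.857 CPM contralaterally and 0.781 to 5.48 CPM ipsilaterally. Of 11 stress genes Socs3 rose by 2.68 ± 0.27, Hspa1a by 2.49 ± 0.43 and Hspa1b by 2.57 ± 0.44. The part of these markers and stress genes in the change of the immediate early genes was not tested.

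Over the 16 tissue libraries Fos moved most closely with other genes of the same response, which is a description of libraries that share mice and hemispheres. The highest Pearson r of log2 CPM with Fos outside the 10 genes were those of Ier2 (0.939), Dusp1 (0.916), Btg2 (0.901), Egr4 (0.898) and Fosl2 (0.895). Arc lay closest to Egr2 (0.940), Dusp6 (0.875), Gpr3 (0.864), Egr4 (0.854) and Trib1 (0.832). Atf3 moved with a different set, Nes (0.974), Icam1 (0.954), Mmp12 (0.949), Cebpd (0.949) and Plek (0.948). Among the 10 genes themselves, r in tissue was 0.935 between Fos and Npas4, 0.958 between Junb and Nr4a1 and 0.927 between Egr1 and Arc, but 0.217 between Egr1 and Atf3 and 0.109 between Jun and Egr1. These values with the group means removed were 0.901, 0.970, 0.937, 0.15 and -0.051.

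**Figure D2:**
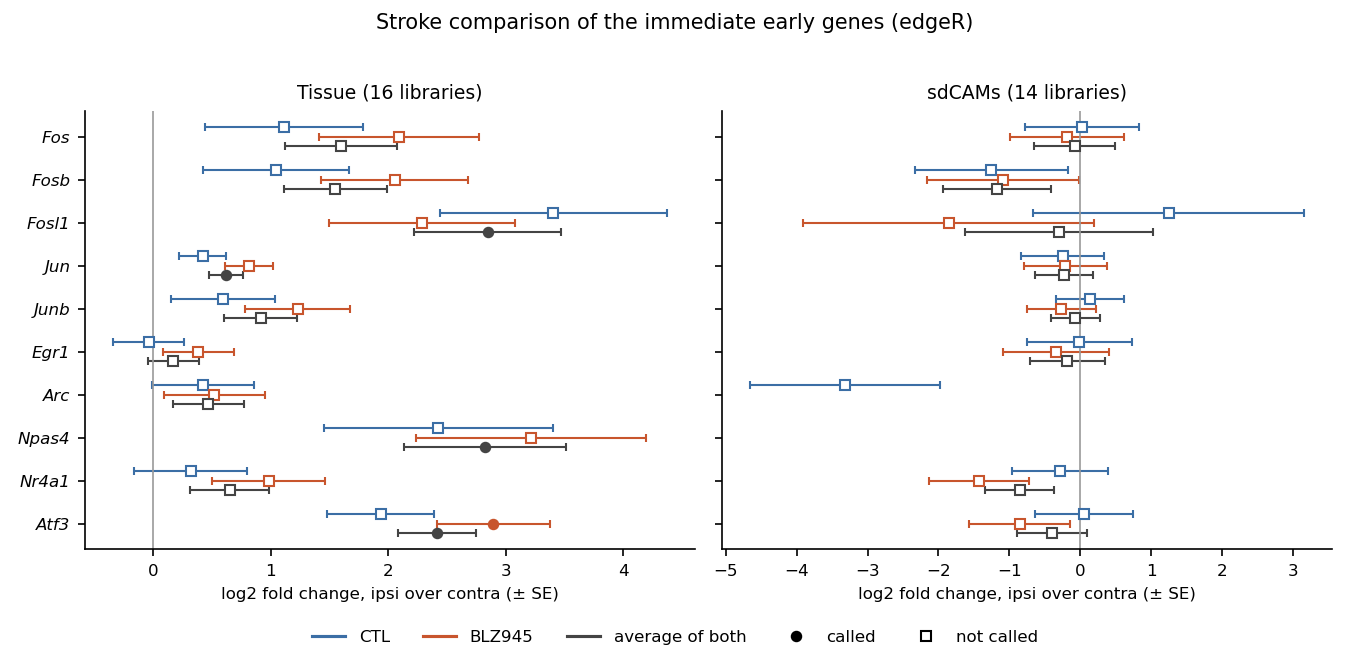
Log2 fold change of each gene, ipsilateral over contralateral, with its SE in edgeR, for tissue (left) and sdCAMs (right), in CTL, in BLZ945 and averaged over both, with filled circles for called genes. The 10 tissue averages lay between 0.17 and 2.85, and in sdCAMs Arc is drawn for CTL only, since all 3 ipsilateral BLZ945 libraries were at 0, and Npas4 was not tested.

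In sdCAMs the picture was different. Of the 9 genes tested Arc alone fell on the stroke side, and 8 did not pass the test, several at very high levels in both hemispheres. Npas4 was not tested, because 2 counts in contralateral D1 were its total over the 14 libraries. Averaged over treatments edgeR called 1 of 9 genes, Arc, which was also the only one at an unadjusted p under 0.05, where 15% of all 18297 genes tested were called. DESeq2 called the same gene (19.6% of all genes), and so did edgeR without the 4 libraries high in choroid plexus markers (4.25%). The median log2 fold change of the 9 genes was -0.30 against -0.16 over all genes. When mouse B1 was left out Nr4a1 was called beside Arc, and without any other mouse Arc alone was called.

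Arc was at 0.094, 7.74, 5.57 and 6.23 CPM in contralateral sdCAMs of the CTL mice A2, A3, A4 and B1, and at 33.4, 7.54, 11 and 11.5 CPM in those of the BLZ945 mice C2, C3, C4 and D1. Ipsilaterally it was at 0, 0.91 and 0.54 CPM in A2, A4 and B1, and at 0 in C3, C4 and D1. Arc was thus lower ipsilaterally in 6 of 6 mice, but in A2 only by 1 count against 0, which is under 3 counts and gives no measurable direction. Contralateral A2 was also the 1 contralateral library within the ipsilateral range. In BLZ945 mice the level was at least 45.2-fold lower, with the ipsilateral libraries set to 3 counts each, and at least 28.5-fold lower without C2, the highest library. It was called by edgeR (adjusted p = 0.0120). This call was lost without C3, C4 or D1 (edgeR adjusted p 0.0594, 0.0705 and 0.0501), and without the 4 libraries high in choroid plexus markers (edgeR adjusted p = 0.116), where C2 was the only contralateral BLZ945 library left and was assumed to vary like the other groups. In CTL mice the log2 fold change was -3.31 ± 1.34 (edgeR adjusted p = 0.212), which DESeq2 called (adjusted p = 0.0375). The average over treatments was called by edgeR (adjusted p = 0.00264). It was also called under all 15 other settings, among them DESeq2 and leaving out each mouse. Without those 4 libraries the average was also below 0, with C2 as the only contralateral BLZ945 library.

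Markers of other cell types fell in the same comparison. Camk2a and Syt1, which encode a synaptic kinase and a vesicle protein, fell among the 7 neuronal markers (edgeR adjusted p = 0.0164 and 0.0371). The neuronal markers summed to 13.4 to 118 CPM contralaterally and 0 to 31.9 CPM ipsilaterally, with all 7 at 0 in ipsilateral C4 and Syt1 at 0 in ipsilateral C3 and D1. All 4 endothelial markers fell (median log2 fold change -4.06), from 436 to 1165 CPM contralaterally to 22.2 to 96.9 CPM ipsilaterally, and all 4 oligodendrocyte markers fell, from 407 to 4885 to 78.2 to 455 CPM. Of the 4 astrocyte markers 2 fell. Of the 4 choroid plexus markers 2 fell, from a sum of 24.6 to 37200 CPM to 0.502 to 1498 CPM. All 7 border macrophage markers rose (median 1.12), from 1426 to 5352 to 4218 to 8764 CPM. The part of these cell types in the fall of Arc was not tested. Over the 14 sdCAM libraries the genes closest to Arc were Ldb3 (r = 0.958), Akr1c14 (0.946), Pgm5 (0.939), Eno4 (0.937) and Pvalb (0.936).

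**Figure D3:**
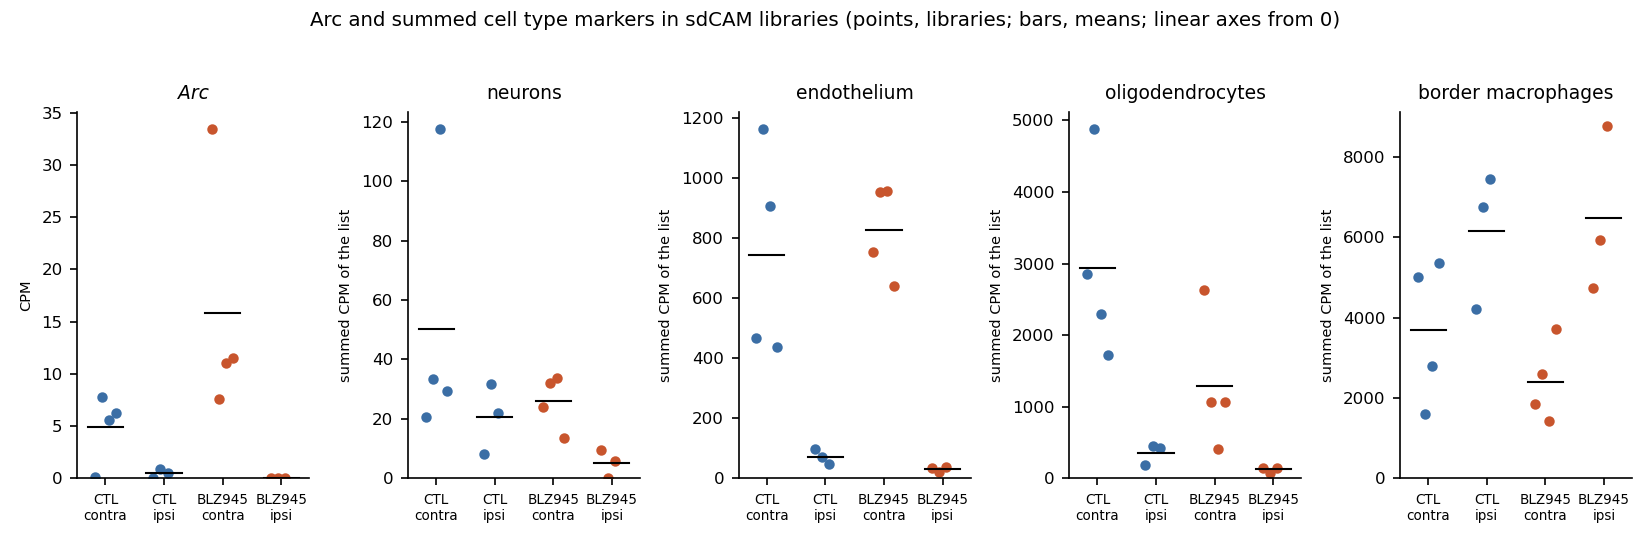
Arc in CPM and the summed CPM of marker genes of neurons, endothelium, oligodendrocytes and border macrophages in each sdCAM library by treatment and hemisphere, on linear axes from 0 (points, libraries; bars, means). Arc, with 33.4 CPM in contralateral C2 as its highest value, and endothelial markers were low in all 6 ipsilateral libraries, while border macrophage markers were at 4218 to 8764 CPM there.

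Fos was the member with the highest level per length in sdCAMs, and its level depended on the mouse more than on the hemisphere. Contralaterally it was at 1719, 623, 814 and 4113 CPM in A2, A3, A4 and B1, and at 2492, 486, 897 and 4359 CPM in C2, C3, C4 and D1. Ipsilaterally it was at 692, 957 and 3892 CPM in A2, A4 and B1, and at 1001, 957 and 3474 CPM in C3, C4 and D1. B1 and D1 were the highest mice in both hemispheres, 3 of 6 mice were higher ipsilaterally, and the average log2 fold change was -0.08 ± 0.57 (edgeR adjusted p = 0.991), with a 95% interval from -1.19 to 1.03.

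Jun, Junb and Egr1 followed the same mice. Jun was at 338 to 2302 CPM contralaterally and 545 to 1518 CPM ipsilaterally, with an average log2 fold change of -0.23 ± 0.41 (95% interval -1.04 to 0.58). Junb was at 437 to 1728 and 530.5 to 1303 CPM (-0.07 ± 0.34, interval -0.74 to 0.60), and Egr1 at 223 to 2080 and 361 to 1891 CPM (-0.18 ± 0.52, interval -1.21 to 0.85). B1 and D1 were the highest mice on each side for all 3. Atf3 was at 61.5 to 597.5 CPM contralaterally and 100.2 to 436 CPM ipsilaterally (-0.40 ± 0.49, edgeR adjusted p = 0.651), and lower ipsilaterally in 4 of 6 mice. The signs of the averages of Junb and Egr1, and also that of Fos, changed with the processing.

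Fosb and Nr4a1 were each lower ipsilaterally in 5 of 6 mice without passing the test. Fosb was at 4.34 to 98.9 CPM contralaterally and 5.19 to 38.9 CPM ipsilaterally, where C3 went against the others (log2 fold change -1.17 ± 0.76, edgeR adjusted p = 0.321). Nr4a1 was at 31.2, 166, 106 and 171 CPM in contralateral CTL and at 224, 152, 136 and 207 CPM in contralateral BLZ945 sdCAMs. Ipsilaterally it was at 28.6, 37.5 and 226 CPM in CTL and at 90.7, 20.6 and 88.6 CPM in BLZ945 sdCAMs. B1 went against the others. In BLZ945 mice alone Nr4a1 had a log2 fold change of -1.43 ± 0.70 and was not called (edgeR adjusted p = 0.243). Its average log2 fold change was -0.86 ± 0.49 (edgeR adjusted p = 0.248) and was called only when B1 was left out. Of the 10 genes 0 had ipsilateral and contralateral libraries without overlap over both treatments, against 5.6% of all genes. Fosl1 had 65 counts in all over the 14 libraries and could not be compared at this depth.

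**Figure D4:**
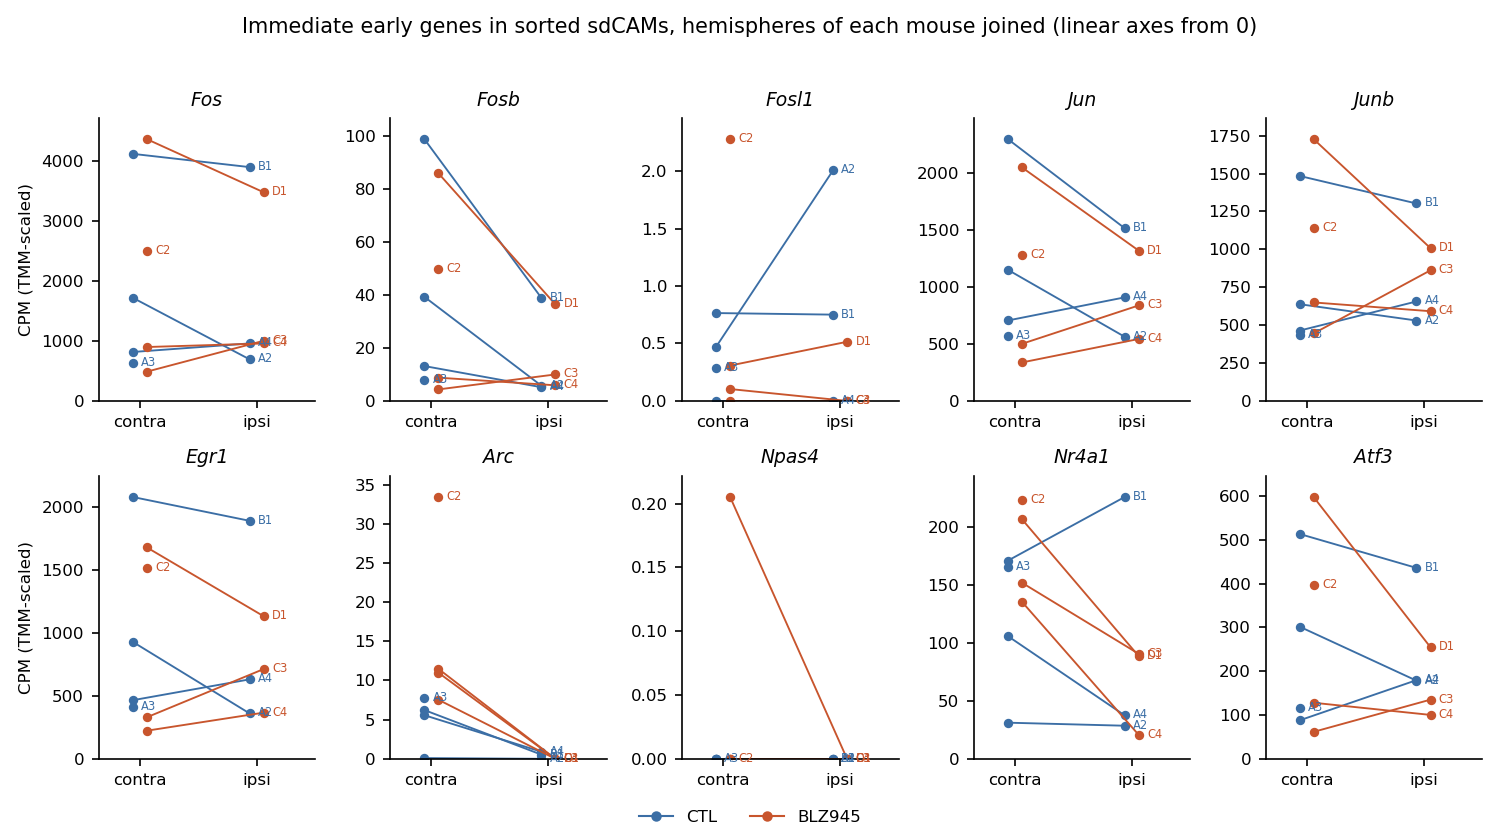
Level of each immediate early gene in sorted sdCAMs, in CPM on linear axes from 0, with 1 line per mouse (blue CTL, orange BLZ945) and single points for A3 and C2, whose ipsilateral libraries were left out. Fos, Jun, Junb and Egr1 were highest in B1 and D1 on both sides, and Arc was at 0.91 CPM or less in all ipsilateral libraries.

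Within treatments edgeR called 0 of 9 genes in CTL sdCAMs, with 1 at an unadjusted p under 0.05, Arc, where 2.79% of all genes were called, and DESeq2 called 1, Arc, where it called 9.7% of all genes. Without the 4 libraries high in choroid plexus markers edgeR called 0 of 9 in CTL sdCAMs (0.324% of all genes) and 0 of 9 in BLZ945 sdCAMs (0.503%). In BLZ945 sdCAMs edgeR called 1 of 9, Arc, where 5.61% of all genes were called, as did DESeq2 (13.5%). The medians of the 9 genes were -0.015 in CTL and -0.86 in BLZ945 sdCAMs, against -0.11 and -0.15 over all genes. The interaction was called for 0 of 9 genes by edgeR (0% of all genes) and by DESeq2 (0.262%). Arc had the only unadjusted p under 0.05 in it (0.00856, edgeR adjusted p = 0.992). Between BLZ945 and CTL sdCAMs 0 of 9 were called by edgeR on the ipsilateral side (0% of all genes, 1 at an unadjusted p under 0.05, Arc) and 0 of 9 on the contralateral side (0% of all genes, 0 at an unadjusted p under 0.05). DESeq2 called 0 of 9 in both, against 0.7% and 0.24% of all genes.

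Among 81 other genes of the response tested in sdCAMs, edgeR called 15 on average over treatments, or 18.5%, near the 15% of all genes called. Of these 4 rose and 11 fell, and of the 2745 genes called among all genes 715 rose and 2030 fell. Of 20 rapid response genes, 3 fell on average over treatments (median log2 fold change -0.13): Ccn2, a matrix protein, by 3.82 ± 0.61 on the log2 scale, Klf2, a factor known from quiescent endothelium, by 1.14 ± 0.21, and Gadd45g by 0.78 ± 0.24. Of 14 targets of neuronal activity tested, 2 fell, Dusp14, a phosphatase, and Rgs4, a regulator of G protein signalling (list median -1.80). Rgs4 fell by 2.88 ± 0.50, and Dusp14 was at 4.15 to 28 CPM in contralateral and 0 to 1.82 CPM in ipsilateral CTL sdCAMs. Maff fell by 2.43 ± 0.50 as the 1 gene called among the 8 other AP-1 and dimer partners (list median -0.105), whereas it had risen in tissue. Of 14 upstream regulators 3 rose (median 0.12), the kinase gene Rps6ka1 by 0.81 ± 0.18 and the MADS-box factor genes Mef2c by 0.68 ± 0.16 and Mef2a by 0.70 ± 0.18. Of 10 MAPK phosphatase and feedback genes Spred1 rose by 1.06 ± 0.24, Spry4 fell by 4.13 ± 0.97 and Dusp8 fell by 1.75 ± 0.43 (median -0.003), and of 4 tested EGR and NR4A genes 0 were called by edgeR (median -1.28). Of 11 stress genes known to rise with warm digestion 3 fell (median -0.37), Hsp90aa1 by 0.71 ± 0.16, Hspa1b by 2.18 ± 0.53 and Hspa1a by 1.57 ± 0.50.

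The level of Fos over the 14 sdCAM libraries moved with Zfp36 (r = 0.963), Nfkbiz (0.946), Ier2 (0.941), Zfp36l1 (0.934) and Btg2 (0.934), and that of Atf3 with Ccl3 (0.917), H3f3b (0.899), Klf6 (0.895), Nfkbiz (0.892) and Osm (0.884). Within the 10 genes r was 0.978 between Jun and Egr1 and 0.936 between Fos and Junb, but 0.0532 between Fos and Arc and 0.386 between Fos and Nr4a1. These libraries share mice, a sort and a digestion.

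Set side by side on a common scale of all 30 libraries, the members fell into 3 patterns between sdCAMs and tissue. Fos, Jun, Junb and Atf3 were higher in every sdCAM library than in every tissue library of the same hemisphere, contralaterally by 73.7-fold, 20.4-fold, 11.7-fold and 111-fold in the mean. Arc and Npas4 were lower in every sdCAM library. The other 4 genes overlapped. On the contralateral side 19.4% of all genes were higher and 27.8% lower in sdCAMs without overlap, and on the ipsilateral side 18.7% and 34.2%.

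On the ipsilateral side the ratio was smaller for the 4 genes that were higher in sdCAMs. Fos was 20.4-fold higher in sdCAMs there, Jun 10.9-fold, Junb 5.44-fold and Atf3 15.7-fold. Arc was 21.5-fold higher in tissue contralaterally. Ipsilaterally it was at 118 to 492 CPM in tissue and at 0 to 0.844 CPM in sdCAMs, with 12 counts in all, so no ratio is given. Npas4 was at least 282-fold higher in ipsilateral tissue than in ipsilateral sdCAMs, set to 3 counts each. Fosb was 1.69-fold higher in sdCAMs contralaterally and 4.45-fold higher in tissue ipsilaterally, and Nr4a1 1.61-fold higher in sdCAMs and 1.92-fold higher in tissue, with overlapping libraries in each case. Egr1 was 2.61-fold and 1.92-fold higher in sdCAMs, also with overlap. Cell type, digestion and sorting differ together between the tables and cannot be told apart, and these ratios were not tested.

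**Figure D5:**
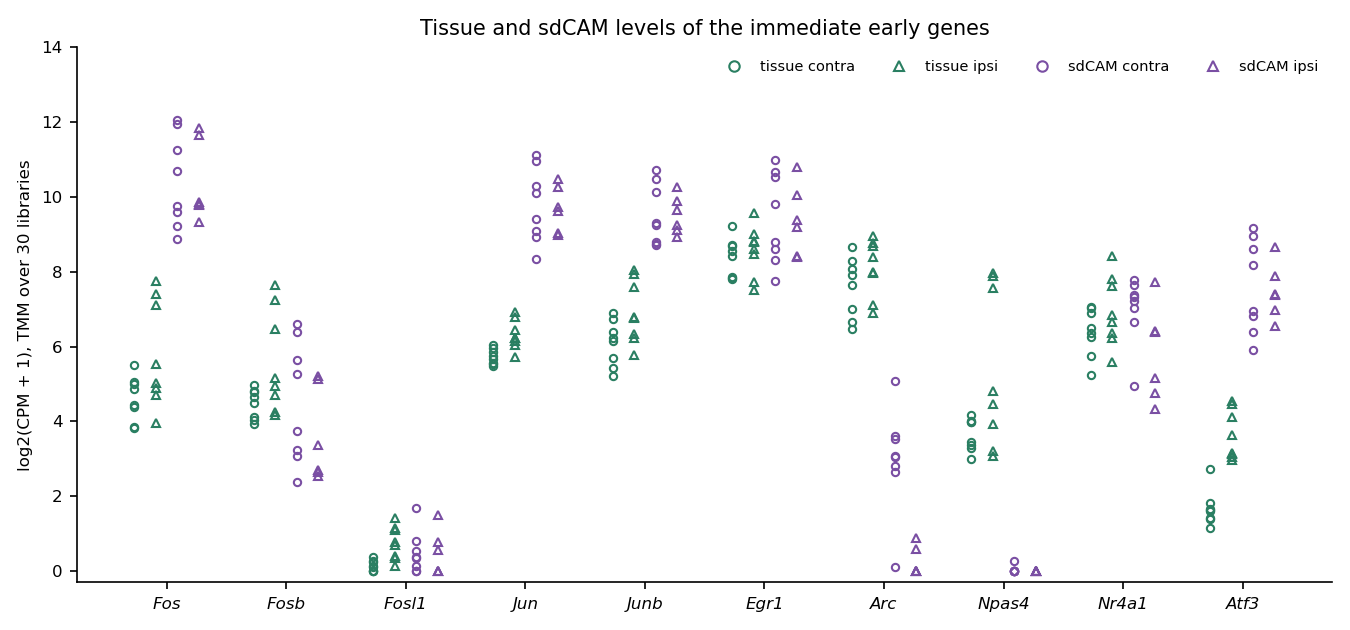
Level of each immediate early gene as log2(CPM + 1) on 1 scale of all 30 libraries (green tissue, purple sdCAMs, circles contralateral, triangles ipsilateral, 1 symbol per library). Fos, Jun, Junb and Atf3 lie higher in all sdCAM libraries and Arc and Npas4 lower, while Fosb, Fosl1, Egr1 and Nr4a1 overlap.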

How the data were processed

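Bulk RNA-seq counts of 32 libraries from 8 mice were used. Per the labels, the authors aligned single 50-cycle reads with STAR 2.7.11a and counted them with featureCounts 2.0.8. The deposited values are raw counts per gene symbol, without normalization. The study's methods name more than 1 mouse build, and which of them these tables used is not given in the sources used here, so no coordinate was taken from them. The study left immediate early genes out of its own bulk analysis.

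One edgeR 4.0.16 model per table (R 4.3.3) was fitted to genes whose counts summed to 8 or more (tissue) or 7 or more (sdCAMs), with TMM scaling, 4 group means of treatment and hemisphere, and quasi-likelihood tests, two-sided, Benjamini-Hochberg adjusted over all genes. CPM used TMM-scaled library sizes, and 95% intervals of log2 fold changes are the SE times the normal quantile. For the ratios between tables, TMM was run over 30 libraries. Correlations used log2 CPM with a prior count of 2. DESeq2 1.42.0, its size factors, other filters, no fold threshold, a replicate block, the column names for A3, all 16 sdCAM libraries and leaving out each mouse were alternatives, and leaving out the 4 sdCAM libraries high in choroid plexus markers was added after seeing the data. The scripts were tested on simulated data. Replicates were separate mice, and libraries of a group differed by 4.68 to 32.0 (tissue) and 36.9 to 148 times (sdCAMs) the sampling noise. The hemispheres pair by animal. Their deviations from the group means correlated with r of 0.214 to 0.645 in tissue and 0.0451 to 0.191 in sdCAMs. All libraries carry the same batch label. Promoters came from RefSeq (GRCm38.p6) and exon lengths from GENCODE vM21.

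The 10 genes, the lists and the motifs were chosen with earlier results of these data known. All 10 members were named. From each list the called genes were named, at most 4 per comparison by smallest p. For likeness, the 5 genes of at least 1 CPM with the highest r to Fos, Arc and Atf3 were named.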

Additional observations from a re-analysis of the deposited data

Results flagged for a closer look

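In each group of 4 libraries every member was examined for a library far from the other 3, by the gap to its nearest neighbour against the range of the group. Of 59 groups examined 7 held such a library. The cutoff marks about 1 in 20 groups of independent, normally distributed values. CPM of members that vary together over the same libraries are not such values, so no excess over chance can be read from this count. In ipsilateral CTL tissue B1 stood apart for Fos at 130 CPM (next highest 29.9), for Npas4 at 177 CPM (next 19.9) and for Atf3 at 21.3 CPM (next 7.55). In contralateral CTL tissue A3, whose hemisphere differs between label and column name, stood apart for Atf3 at 5.44 CPM (next 2.06). In contralateral BLZ945 sdCAMs C2 stood apart for Arc at 33.4 CPM (next 11.5) and for Fosl1 at 2.28 CPM (next 0.308), and D1 for Npas4 at 0.205 CPM, which is 2 counts, with 0 in the other libraries.

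The shallow ipsilateral sdCAM library of C2, which no comparison used, held 3 counts of Npas4, or 54.4 CPM (exact 95% interval of the count 11.2 to 159 CPM, counting error only), against at most 0.205 CPM in the contralateral sdCAM libraries. The shallow library of A3 held 1 count of Npas4 and 0 counts of Fos and Jun, while that of C2 held 58 of Fos and 28 of Jun.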

How the results depend on the processing

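The count of members called in tissue moved with the tool, the block and the labels of A3. In CTL tissue it was 0, and 1 with DESeq2 and with the replicate block. In BLZ945 tissue it was 1, and 3 with DESeq2, 2 without a filter, 2 with the replicate block and 0 with the column names for A3. Averaged over treatments it was 4, and 6 with DESeq2 and with the replicate block, 5 without a filter, 3 with edgeR's filterByExpr and 0 with the column names for A3. In CTL sdCAMs it was 0, and 1 with DESeq2. In BLZ945 sdCAMs it was 1, and 0 without the 4 libraries high in choroid plexus markers, an alternative chosen after seeing the data. Leaving out 1 mouse at a time gave 0 to 1 (CTL tissue), 0 to 3 (BLZ945 tissue), 1 to 5 (tissue average), 0 to 1 (BLZ945 sdCAMs) and 1 to 2 (sdCAM average). The mice behind these changes are named beside the results. Beyond these changes, the replicate block changed no sdCAM call.

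The sign changed in 19 of 420 values under other settings and in 18 of 456 with 1 mouse left out, and 0 of these were called. With the column names for A3, Egr1 in CTL tissue was 0.0098 (log2 fold change). In CTL sdCAMs Fos was -0.053 with DESeq2 and with its size factors, -0.38 with the block and -0.39 with all 16 libraries, Atf3 was -0.014, -0.013 and -0.32 with DESeq2, its size factors and all 16 libraries, and Junb was -0.26 with all 16. Without the 4 libraries high in choroid plexus markers Fos was -0.22, Junb -0.035 and Atf3 -0.22 in CTL sdCAMs. With the block in BLZ945 sdCAMs Fos was 0.27, Jun 0.27, Junb 0.0089 and Egr1 0.43, and on average Fosl1 was 0.28, Junb 0.011 and Egr1 0.040. With 1 mouse left out, Egr1 ranged from -0.22 to 0.065 and Nr4a1 from -0.17 to 0.60 in CTL tissue. In CTL sdCAMs Fos ranged from -0.35 to 0.40, Jun from -0.47 to 0.035, Junb from -0.049 to 0.31, Egr1 from -0.28 to 0.36, Nr4a1 from -1.61 to 0.055 and Atf3 from -0.18 to 0.37. Fosl1 ranged from -5.89 to 0.33 in BLZ945 sdCAMs, and on average over treatments Fos ranged from -0.27 to 0.10, Fosl1 from -2.32 to 0.79, Junb from -0.21 to 0.051 and Egr1 from -0.31 to 0.0085. The cause was not tested. Fosl1 and, in sdCAMs, Npas4 were limited by depth, and 3 ipsilateral sdCAM libraries a group limited the rest.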
